A study of Mus musculus with 9 samples.

Results

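The genes described here carry glucose into heart cells, store it as glycogen, break it down by glycolysis and handle lactate. Of 36 listed genes, 33 were found as the single gene named by a probe set of the array, through 67 probe sets, out of 18194 genes named in the same way. Gpi1, Eno1 and Pfkfb1 had no such probe set and were not analysed here. Where a gene had several, its brightest on average was taken. The members fall into uptake (4 genes), upper glycolysis (8), the regulators of phosphofructokinase (2), lower glycolysis (8), lactate (5) and glycogen (6).

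The study measured messenger RNA in cardiac ventricles of E18.5 male mouse fetuses (late gestation) that differed in Esrrg, the gene for the orphan nuclear receptor ERRγ (ERRg in the labels). The groups were ERRg +/+ (WT), ERRg +/- (HET) and ERRg -/- (KO), with 3 Affymetrix arrays each, labelled as biological replicates, and no other allele or treatment is named. How the allele was made, and whether an array holds pooled ventricles, are not settled by the labels, so the p-values speak only of array-to-array spread. The ventricle is a mixed tissue, so fewer cells of a type and less RNA per cell cannot be told apart.

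Glucose enters a cell through facilitative transporters, is trapped by hexokinase and is split and oxidised to pyruvate, which lactate dehydrogenase can exchange with lactate. Most steps are carried by several isoforms, with muscle, liver, brain or ubiquitous forms from separate genes, and muscle also keeps glycogen as a local store of glucose. The fetal heart relies on glucose and lactate to a greater extent than the adult heart, which burns mainly fatty acids, and ERRγ is known chiefly as a regulator of mitochondrial genes.

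The promoter windows of the members were taken as RefSeq gives them for GRCm38.p6, from 250 bases before to 50 after each listed start. They were searched on both strands for AAGGTCA, the core that ERR proteins bind, and for its extended form TNAAGGTCA. They were also searched for ACGTG, the core bound by the hypoxia-inducible factors, which are known regulators of glycolytic genes. The search covered 43 windows of 31 members, as some genes have several starts, and Slc2a3 and Slc2a4 had none. A gene counts where any of its windows holds the motif. AAGGTCA lay in the window of 1 of the 31, Tpi1, against 5.38% of 27025 genes. The match was the extended form, which includes the core and which 1.43% of all genes hold. The hypoxia core lay in 21 of the 31 (67.7%), against 21.8% of all genes and 28.9% of the genes that passed the filter on dim signals. A match is a run of letters and not a shown binding site. Where a gene has several windows, the one printed was picked for its matches: the most of the hypoxia core, or for Tpi1 the extended form. The sequences below are the paired isoform genes and neighbouring steps whose signals are described later, with the motif in capitals, from base -155 to -1 before the start, and for Tpi1 the 30 bases around its match. A palindromic CACGTG counts once on each strand, so Ldha holds 5 matches in 3 places, Pgk1 holds 2, and the windows of Ldhb, Eno2 and Eno3 hold none. The capitals in Tpi1 are TNAAGGTCA read on the opposite strand.
Ldha (chr7:46845649-46845803, plus strand): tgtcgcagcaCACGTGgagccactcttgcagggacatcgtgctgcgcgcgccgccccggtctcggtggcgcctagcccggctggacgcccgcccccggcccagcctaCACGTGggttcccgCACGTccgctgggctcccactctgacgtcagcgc
Ldhb (chr6:142507958-142508112, minus strand): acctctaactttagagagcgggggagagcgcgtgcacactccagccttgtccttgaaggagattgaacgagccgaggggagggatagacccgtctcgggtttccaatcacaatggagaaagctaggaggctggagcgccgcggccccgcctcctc
Pgk1 (chrX:106186945-106187099, plus strand): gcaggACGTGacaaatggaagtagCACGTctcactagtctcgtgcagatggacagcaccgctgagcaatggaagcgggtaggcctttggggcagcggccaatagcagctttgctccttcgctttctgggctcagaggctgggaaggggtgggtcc
Eno2 (chr6:124769674-124769828, minus strand): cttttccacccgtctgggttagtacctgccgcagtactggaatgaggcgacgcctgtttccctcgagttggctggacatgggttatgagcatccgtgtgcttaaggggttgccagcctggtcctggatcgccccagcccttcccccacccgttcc
Eno3 (chr11:70657021-70657175, plus strand): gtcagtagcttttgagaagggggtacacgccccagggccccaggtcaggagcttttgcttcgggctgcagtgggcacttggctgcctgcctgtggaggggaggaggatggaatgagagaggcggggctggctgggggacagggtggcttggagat
Tpi1 (chr6:124814131-124814160, minus strand): gcgtttgtacTGACCTTCAgagacttgagc

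Array medians lay between 36.6 and 45.9, and Esrrg signals were 206 to 281 on WT arrays, 162 to 164 on HET and 39.3 to 58.3 on KO. The arrays part in the log2 ratio of the spike-in controls thr and dap. On WT replicates 1 to 3 and HET replicate 1 this ratio was -0.67 to -0.43. On HET replicates 2 and 3 and all KO arrays it was -1.09 to -0.89. These sets are called the first and second array batch here, although no label or header names a batch. All WT arrays lie in the first and all KO arrays in the second, so for these genotypes batch and genotype cannot be told apart except through HET, and the KO minus WT difference of a batch-blocked fit rests on the single array HET replicate 1. Of the defining markers of cardiomyocytes, 8 of 8 passed the filter and their summed signal was 161011 to 170344 in WT, 147438 to 164262 in HET and 149432 to 162732 in KO.

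Between KO and WT, 1 of the 32 members tested passed, the transporter gene Slc2a3, which rose (limma over 13029 genes, adjusted p under 0.05). Of all genes 1.62% passed, 0.737% higher and 0.883% lower in KO. One gene, Ldhd, was too dim to be tested. In HET minus WT and in KO minus HET, limma called 0 members, beside 0% and 0.0154% of all genes, and 7 and 1 members had an unadjusted p under 0.05, beside 11.5% and 4.81%. In HET against WT 18 of 32 were lower, beside 50.9% of all genes, and in KO against HET 25, beside 51.7%. HET and WT arrays did not overlap in 5 members (beside 13.7%), with Gys1 and Ldhb lower (7.41%) and Eno2, Hk3 and Slc2a3 higher (6.29%). For the dim Hk3, HET replicate 1 (37.86) all but touched WT replicate 1 (37.85), and its other probe set overlapped. KO and HET arrays did not overlap in 5 (beside 10.5%), with Pfkfb2, Pfkl, Pgam1 and Pygm lower (5.73%) and Pgm2 higher (4.76%). In 0 members did all 3 genotypes part in gene-dose order, beside 0.284% of all genes rising and 0.453% falling with each copy lost. Differences in this text are on the log2(signal + 16) scale, with limma's standard error.

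More members were lower than higher, most by small amounts. In KO against WT 23 of 32 were lower (71.9%), beside 51.6% of all genes, with a median of -0.10 against -0.0092 over all genes. In 15 members KO and WT arrays were wholly apart (46.9%), beside 24.9% of all genes. Of these, 12 were lower in KO (37.5%, beside 13.9%) and 3 were higher (9.38%, beside 11.1%). How far the members stand below all genes depends on the scaling of the arrays, on the choice of probe set and on the batch. After quantile normalization 20 of 32 were lower, with a median of -0.03 for the members and -0.03 for all genes. With a gene's probe sets averaged 19 of 32 were lower, with a median of -0.05 against 0.01 over all genes. With the batch as a block 17 of 32 were lower (53.1%, beside 47.5%), with a median of -0.01 against 0.02 over all genes, and 0 were called by limma, beside 0.00768% of all genes (2 members, Slc2a3 and Eno2, had an unadjusted p under 0.05, beside 6.19%). Cell type markers moved beside the members: those of cardiomyocytes had a KO minus WT median of -0.10 (8 tested, Nppa called higher), and those of fibroblasts 0.13, with 6 of 7 higher and Lum called higher. The 6 endothelial markers had a median of -0.03, with 2 higher, and Kdr alone was called, lower (-0.74). Their part in the members' differences was not tested.

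**Figure D1:**
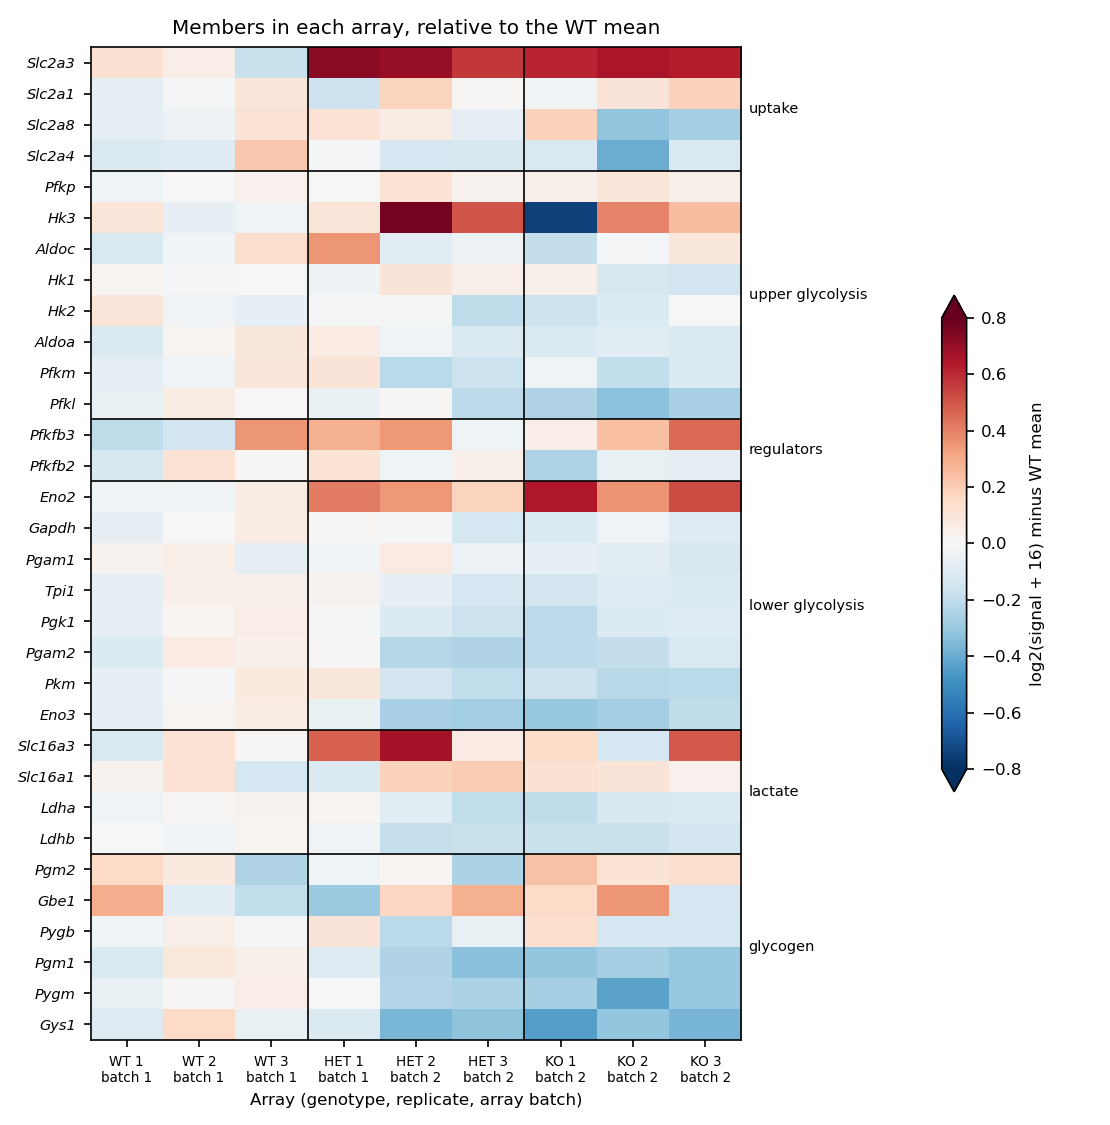
Each row is 1 of the 32 members tested and each column 1 array, coloured by log2(signal + 16) minus the gene's WT mean, with the array batch under each column. Slc2a3 and Eno2 are red in all 6 HET and KO arrays, while a block of blue in lower glycolysis, lactate and glycogen genes starts at HET replicate 2, the first array of the second batch.

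Uptake was the step with the one call. Slc2a3 encodes GLUT3, a high-affinity glucose transporter best known from neurons, placenta and blood cells. Its signal was 196, 186 and 156 on the WT arrays, 306, 299.7 and 272 on the HET arrays, and 281, 291 and 285 on the KO arrays. All 6 HET and KO arrays lay above all 3 WT arrays, a pattern shown by 2 members, Slc2a3 and Eno2 (6.25%), beside 2.94% of all genes. The mean was 180 ± 20.9 in WT, 293 ± 18.0 in HET and 286 ± 5.03 in KO (SD, n = 3 each), and KO averaged 159% and HET 163% of the WT level. The KO minus WT difference was 0.63 ± 0.13 (limma, adjusted p = 0.0338) and HET minus WT was 0.66 ± 0.13 (adjusted p = 0.23). KO and HET overlapped, with a difference of -0.03 ± 0.13.

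The Slc2a3 difference was as large within the first batch, and near 0 between KO and HET in the second. HET replicate 1 exceeded the WT arrays of its own batch by 0.72 ± 0.24, KO minus HET within the second batch was -0.0001 ± 0.13, and the batch block gave 0.72 ± 0.24 for KO minus WT (limma, adjusted p = 0.728). By exact two-sided permutation of its signals, p was 0.1 for KO against WT and for HET against WT, the smallest that 3 against 3 arrays allow, and 0.6 for KO against HET. Its other probe sets gave 0.37 ± 0.19, 0.10 ± 0.31 and 0.70 ± 0.35, all higher in KO and none called. The next brightest of these read 106, 106 and 109.7 on WT arrays, 168, 144 and 104 on HET arrays and 154, 143 and 133 on KO arrays, where KO lay above WT and HET overlapped it. The dimmest, at 0.70, averaged 16.6 on WT arrays, under the filter signal of 21.7. It passed the filter only through the HET and KO arrays, so its direction cannot be set beside that of the others.

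Slc2a3 and Eno2, described below, are both known from neurons, so neural markers were read beside them. Of 7 listed markers 6 are on the array, 2 passed the filter and 0 were called. Their summed signal was 66.8 to 189 in WT, 98.0 to 185 in HET and 97.4 to 171 in KO, with Tubb3, Elavl4 and Snap25 under the filter. Both tested markers were higher in KO, Nefl by 0.14 and Gfap by 0.73, so their median of 0.43 rests largely on Gfap. Nefl read 27.1, 2.90 and 80.0 on WT arrays and 23.2, 35.2 and 35.9 on KO arrays, with overlap. Gfap, an astrocyte filament gene, read 6.39, 6.92 and 9.28 on WT arrays, 93.0, 35.9 and 36.9 on HET arrays and 28.7, 18.9 and 21.9 on KO arrays (KO minus WT 0.73 ± 0.40, limma adjusted p = 0.376). All HET and KO arrays lay above WT, but the WT arrays and KO replicate 2 lay under the filter signal of 21.7. Gfap passed the filter only through the arrays where it is high, so its order of genotypes cannot be set beside that of Slc2a3 and Eno2. For leukocytes, which also use GLUT3, 6 of 6 markers passed the filter and 0 were called, with a summed signal of 1007 to 1124 in WT, 1124 to 1314 in HET and 1106 to 1252 in KO. The part of either marker group in the Slc2a3 and Eno2 results was not tested.

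The transporters usual for heart muscle did not pass. Slc2a1 encodes GLUT1, the basal transporter of the fetal heart, and read 1519, 1583 and 1712 in WT, while HET gave 1425, 1815 and 1613 and KO 1578, 1726 and 1820 (KO minus WT 0.09 ± 0.10, limma adjusted p = 0.695). Its genotypes overlapped, and its other probe sets gave -0.11 and -0.12. Slc2a4 encodes the insulin-responsive GLUT4, and read 851, 858 and 1073 on WT arrays, 915, 839 and 841 on HET arrays and 847, 695 and 848 on KO arrays. The nearest KO and WT arrays almost touched (-0.21 ± 0.11, adjusted p = 0.351), and its second probe set went the other way (0.14 ± 0.13). Slc2a8, the gene for the intracellular transporter GLUT8, differed by -0.13 ± 0.16 and overlapped.

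In upper glycolysis, from hexokinase to aldolase, 7 of 8 members were lower in KO, with a median of -0.09 and a range of -0.27 to 0.06. With the batch block 4 were lower and 4 higher, with a median of -0.0025. Pfkl, the liver-type subunit of phosphofructokinase, had the smallest p of the step. It read 2033, 2218 and 2124 in WT, while HET gave 2044, 2133 and 1837 and KO 1796, 1692 and 1771. The KO arrays lay below every other array, and the KO mean was 82.5% of WT. KO minus WT was -0.27 ± 0.08 (limma, adjusted p = 0.0907) and KO minus HET -0.19 ± 0.08, the one member with an unadjusted p under 0.05 in that comparison. Within the second batch KO minus HET was -0.17 ± 0.08, and the batch block gave -0.23 ± 0.13 for KO minus WT. Another Pfkl probe set gave -0.36 ± 0.10, but -0.14 ± 0.15 with the block, and the dimmest, at signals of 34.3 to 73.5, gave 0.30 ± 0.27.

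The other phosphofructokinase subunits gave smaller differences by their brightest probe sets. Pfkm, the muscle form, read 3865, 3974 and 4345 on WT arrays, 4351, 3484 and 3604 on HET arrays and 3964, 3531 and 3739 on KO arrays. Its difference was -0.12 ± 0.09 without and 0.18 with the batch block, and the genotypes overlapped. Pfkp, the platelet form, read 2706, 2765 and 2830 in WT, while HET gave 2760, 2989 and 2827 and KO 2841, 2956 and 2864. The KO arrays lay just above WT, and the difference of 0.06 ± 0.07 was within its standard error. Its dimmer probe sets gave 0.22 ± 0.09 (0.01 with the block), where the KO arrays lay above all others, and 0.37 ± 0.18.

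Hexokinases, which trap glucose as glucose 6-phosphate, did not part KO from WT. Hk1, the ubiquitous form bound to mitochondria, read 2279, 2232 and 2248 on WT arrays, 2187, 2418 and 2327 on HET arrays and 2321, 2061 and 2026 on KO arrays (KO minus WT -0.08 ± 0.08). Hk2, the insulin-regulated muscle form, read 1570, 1435 and 1398 in WT, while HET gave 1458, 1448 and 1273 and KO 1299, 1359 and 1466 (-0.09). Hk3, known from leukocytes, was dim at 14.0 to 69.7 and had the widest spread of the 32 members tested. The second probe set of Hk1 did not match the first: it read 2309, 2216 and 2430 on WT arrays, 2294, 2034 and 1849 on HET arrays and 1863, 1862 and 1869 on KO arrays. There the KO arrays lay below WT by -0.31 ± 0.09 (limma over 23553 probe sets, adjusted p = 0.0899), and by -0.07 ± 0.12 with the batch block. The aldolase genes Aldoa (muscle form) and Aldoc (brain form) differed by -0.11 ± 0.06 and -0.04 ± 0.12.

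The regulators Pfkfb2 and Pfkfb3 make and remove fructose 2,6-bisphosphate, the activator of phosphofructokinase, and both were dim. Pfkfb3 read 57.8, 60.6 and 92.8 in WT, while HET gave 87.8, 92.0 and 67.1 and KO 72.4, 84.3 and 100.2 (0.25 ± 0.23). Pfkfb2 read 70.1, 86.1 and 78.9 on WT arrays, 85.6, 75.9 and 80.7 on HET arrays and 63.5, 74.2 and 73.5 on KO arrays (-0.13 ± 0.21). Neither separated KO from WT.

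**Figure D2:**
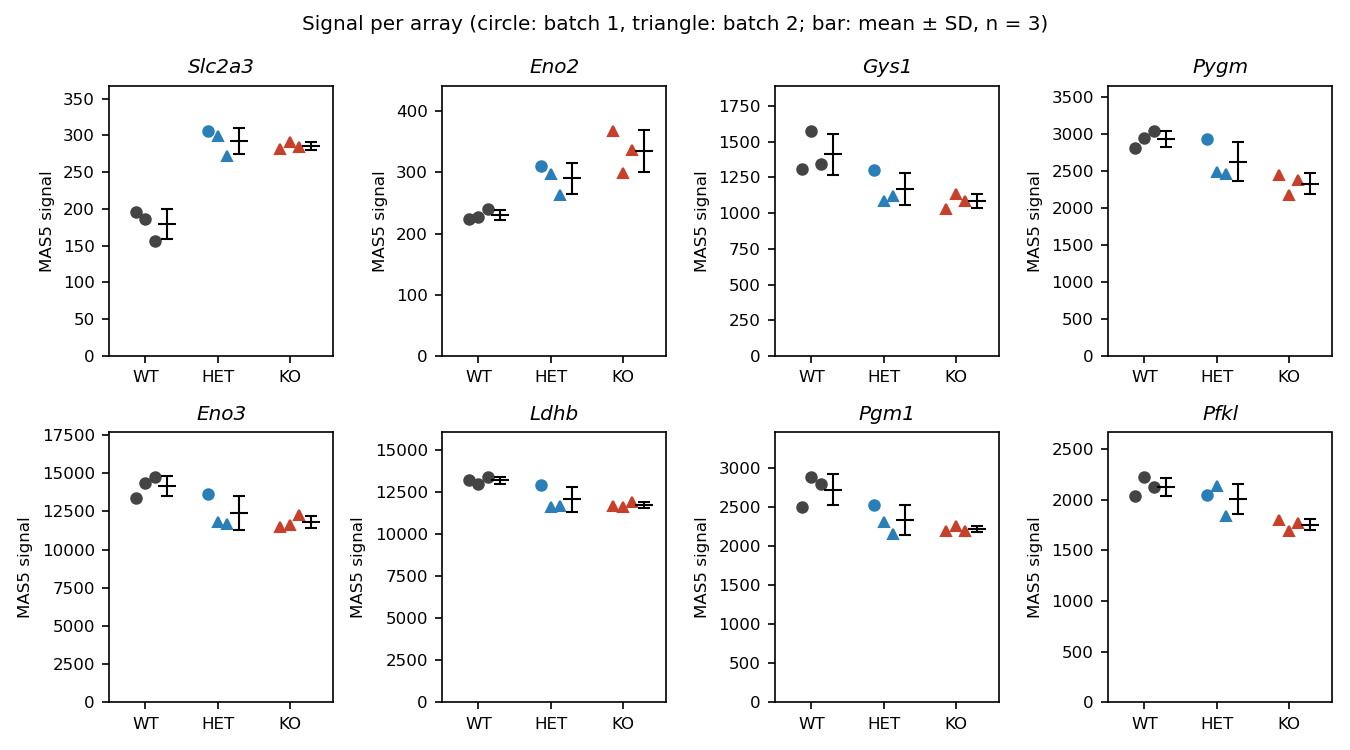
MAS5 signal on each array for 8 members, by genotype, with circles for the first and triangles for the second array batch and bars for mean ± SD (n = 3). For Slc2a3 and Eno2 all HET arrays, of either batch, and all KO arrays lie above WT, whereas in Pygm, Eno3 and Ldhb HET replicate 1 sits with WT and HET replicates 2 and 3 sit with KO.

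In lower glycolysis, from triose phosphate isomerase to pyruvate kinase, 7 of 8 members were lower in KO, with a median of -0.13 (0.01 with the batch block), and the eighth, Eno2, was higher. Eno2 encodes enolase 2, the neuronal form, and read 224, 226 and 239.96 in WT, while HET gave 311, 297 and 263 and KO 368, 299.5 and 337. All HET and KO arrays lay above WT, with KO averaging 145% and HET 126% of the WT level. KO minus WT was 0.51 ± 0.13 (limma, adjusted p = 0.0595), HET minus WT 0.31 ± 0.13 and KO minus HET 0.20 ± 0.13. Eno2 did not pass over all genes, and its exact permutation p for KO against WT was 0.1, the smallest possible. The batch block gave 0.65 ± 0.23, and HET replicate 1 exceeded the WT arrays of its batch by 0.41 ± 0.21.

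Eno3, the muscle enolase, had the opposite sign. It read 13404, 14364 and 14726 on WT arrays, 13653, 11809 and 11712 on HET arrays and 11493, 11644 and 12275 on KO arrays. KO lay below WT, with a mean of 83.3% of WT (-0.26 ± 0.07, limma adjusted p = 0.0624), and HET replicate 1 lay within the WT range while HET replicates 2 and 3 lay with KO. With the batch as a block the difference was -0.05 ± 0.09, and KO minus HET inside that second batch was 0.0048 ± 0.05.

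The same step at the batch border is seen in the bright neighbouring genes. Pkm, the pyruvate kinase of muscle and most tissues, read 8250, 8559 and 9099 in WT, while HET gave 9193, 7801 and 7516 and KO 7658, 7412 and 7436 (-0.20 ± 0.07 without and 0.06 with the block). Pgam2, the muscle phosphoglycerate mutase, read 9689, 10936 and 10743 on WT arrays, 10501, 8900 and 8826 on HET arrays and 9048, 9135 and 9581 on KO arrays (-0.17 ± 0.07 without and 0.07 with the block). In both, HET replicate 1 fell among or above the WT arrays. Pgam1, the ubiquitous form, read 4326, 4382 and 4011 in WT, while HET gave 4181, 4439 and 4099 and KO 4042, 3997 and 3880, and overlapped WT.

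Pgk1, phosphoglycerate kinase, and Tpi1, triose phosphate isomerase, were lower by their brightest probe sets and higher by others. Pgk1 read 13093, 13806 and 14181 on WT arrays, 13584, 12700 and 12130 on HET arrays and 11824, 12670 and 12759 on KO arrays (-0.14 ± 0.06). Its second probe set read 6541, 7396 and 7051 in WT, while HET gave 7495, 8173 and 8264 and KO 7799, 8416 and 8539 (0.24 ± 0.07). The KO arrays lay below WT in the first and above WT in the second, so no direction is given for Pgk1. Tpi1 read 13383, 14551 and 14578 on WT arrays, 14415, 13501 and 12923 on HET arrays and 12811, 13203 and 13129 on KO arrays (-0.12 ± 0.06). Its dimmest probe set read 7128, 8093 and 7613 in WT, while HET gave 7670, 8893 and 9017 and KO 8974, 8708 and 8490 (0.20 ± 0.07). Both of these dimmer probe sets also stepped at the batch border, upward, with every array of the second batch above every array of the first. Gapdh, glyceraldehyde 3-phosphate dehydrogenase, is named here by control probe sets for its 5′, middle and 3′ parts. These differed by -0.08 ± 0.06, -0.21 ± 0.07 and -0.18 ± 0.06, and by 0.0021, 0.0085 and -0.03 with the batch as a block. None of them was called.

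**Figure D3:**
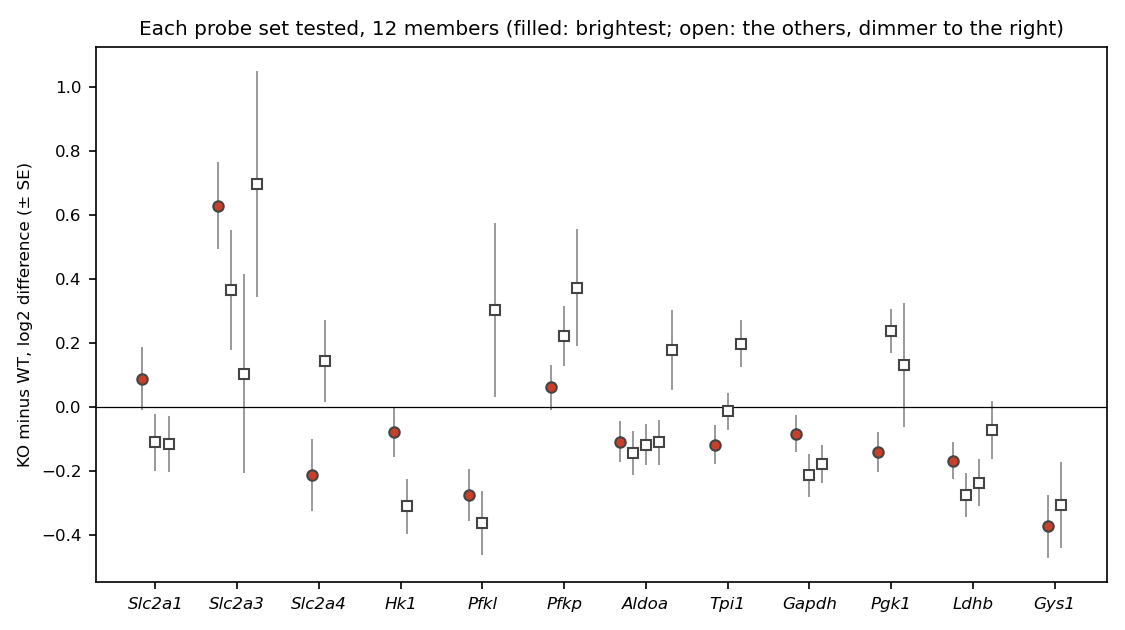
KO minus WT log2 difference (± SE) of each tested probe set of 12 members, with the brightest filled and dimmer ones open to its right. Probe sets of Slc2a3 all lie above 0 and those of Ldhb and Gys1 below, while those of Slc2a1, Slc2a4, Pfkl, Aldoa, Tpi1 and Pgk1 lie on both sides. The dimmest of Slc2a3 passed the filter only through HET and KO arrays.

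Among the lactate genes, both subunit genes of L-lactate dehydrogenase were slightly lower in KO, with no overlap with WT and no call. Ldhb, the heart-type subunit, read 13249, 12971 and 13376 on WT arrays, 12936, 11634 and 11684 on HET arrays and 11664, 11642 and 11934 on KO arrays. The HET and KO arrays lay below WT, a pattern shown by the brightest probe sets of Gys1 and Ldhb (6.25% of members, beside 4.41% of all genes), but HET replicate 1 was close to the lowest WT array. The KO mean was 89.0% of WT (-0.17 ± 0.06, limma adjusted p = 0.137), and the block gave -0.02 ± 0.08. Its other probe sets gave -0.27, -0.24 and -0.07 without the block, and -0.05, 0.04 and 0.24 with it. In those at -0.24 and -0.07, HET replicate 1 (11933 and 12185) lay above every WT array.

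Ldha, the muscle-type subunit with ACGTG in its promoter, read 16398, 16887 and 17113 in WT, while HET gave 16956, 15745 and 14656 and KO 14608, 15390 and 15493. KO lay below WT (-0.15 ± 0.06, limma adjusted p = 0.214), HET replicate 1 lay within the WT range, and the block gave 0.01. The monocarboxylate transporters, which carry lactate across the membrane, did not separate the genotypes. Slc16a1 (MCT1) read 3363, 3577 and 2990 on WT arrays, 3051, 3749 and 3804 on HET arrays and 3593, 3553 and 3379 on KO arrays (0.09 ± 0.09). Slc16a3 (MCT4, known for lactate export) read 398, 472 and 439 in WT, while HET gave 609.6, 699 and 456 and KO 484, 393 and 619, and its largest difference was HET minus WT (0.40 ± 0.16). Ldhd, the D-lactate dehydrogenase, read 1.95 to 61.2 over the arrays.

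In glycogen metabolism 4 of 6 members were lower in KO, with a median of -0.17, and -0.10 with the batch block. Pygm, the muscle glycogen phosphorylase that releases glucose from glycogen, read 2810, 2940 and 3036 on WT arrays, 2931, 2486 and 2450 on HET arrays and 2437, 2172 and 2372 on KO arrays. The KO arrays lay below all others, with a mean of 79.4% of WT (-0.33 ± 0.08, limma adjusted p = 0.0581). HET replicate 1 lay within WT, the block gave -0.08 ± 0.12, and inside the second batch KO minus HET was -0.09 ± 0.07.

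Gys1, the muscle glycogen synthase that builds the store, read 1310, 1575 and 1346 in WT, while HET gave 1299, 1087 and 1120 and KO 1031, 1131 and 1084. HET and KO lay below WT, though HET replicate 1 was close to the lowest WT array. The KO mean was 76.7% and the HET mean 82.9% of WT. KO minus WT was -0.37 ± 0.10 (limma, adjusted p = 0.067), the lowest difference among the members tested, and -0.14 ± 0.15 with the block. A second probe set gave -0.31 without and 0.03 with the block, and there HET replicate 1 (606) lay above every WT array.

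Pgm1, the phosphoglucomutase that links glycogen to glycolysis, read 2494, 2876 and 2795 on WT arrays, 2531, 2301 and 2154 on HET arrays and 2191, 2256 and 2197 on KO arrays. KO lay below WT (-0.29 ± 0.08, limma adjusted p = 0.0785), with HET replicate 1 inside the WT range, and the block gave -0.11 ± 0.12. Pygb, the brain-type phosphorylase, read 3014, 3186 and 3050 in WT, while HET gave 3314, 2657 and 2959 and KO 3366, 2811 and 2797, with overlap (-0.05). The branching enzyme gene Gbe1 (0.12 ± 0.18) and Pgm2 (0.16 ± 0.14) were higher in KO and overlapped WT.

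Set against the batch border, and by brightest probe sets only, 10 of the 32 members (31.2%) had every array of the second batch below every array of the first. Of all genes 7.67% did so. The reverse was seen in 0 members, beside 5.36%. The 10 were Eno3, Gys1, Ldha, Ldhb, Pgam2, Pgk1, Pgm1, Pkm, Pygm and Slc2a4. Pfkl and Tpi1 had KO arrays below WT without this step. Dimmer probe sets did not all follow: the second of Pgk1 and the dimmest of Tpi1 had the reverse step. The second of Slc2a4 was higher in KO than in WT (0.14 ± 0.13). Among the HET arrays alone, the mean of HET replicates 2 and 3 lay below HET replicate 1 in 25 of 32 members. The median difference was -0.13, against -0.05 over all genes, where 55.7% lay below. Of the 23 members lower in KO, 20 were among these 25. This comparison, like the batch block, rests on the single array HET replicate 1. Its array quality weight was the lowest (0.46), and that of WT replicate 3 was next (0.70). The weights came from a fit by genotype without the batch. There an array far from the mean of its genotype is weighted down, so the weight cannot tell a batch split from a poor array. Whether the split follows the batch or HET replicate 1 alone was not tested.

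**Figure D4:**
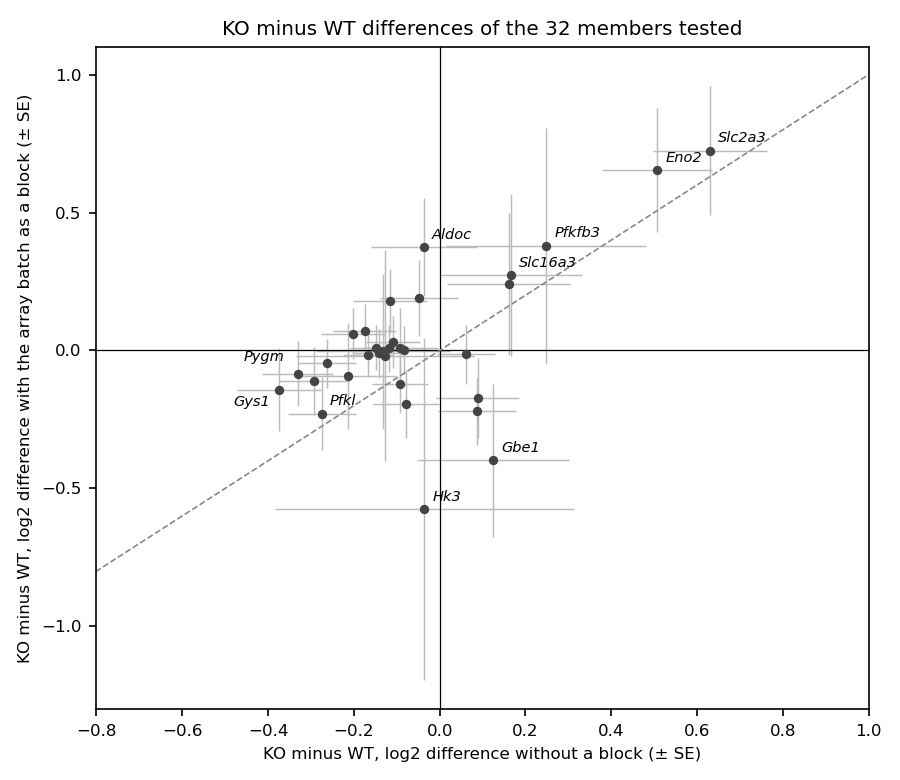
KO minus WT log2 difference of the 32 members tested without (x axis) and with (y axis) the array batch as a block, ± SE, with the line of equality dashed. By their brightest probe sets Slc2a3, Eno2 and Pfkl lie near the line (0.63 and 0.72, 0.51 and 0.65, -0.27 and -0.23), while most members on the left, such as Gys1 and Pygm, lie nearer 0 on the y axis.

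The calls depend on single arrays. Without HET replicate 1, the array that carries both the HET genotype and the first batch, limma called 9 members between KO and WT: Slc2a3 and Eno2 higher, and Eno3, Gys1, Ldhb, Pfkl, Pgm1, Pkm and Pygm lower, when 6.45% of all genes were called. In HET minus WT it then called 5, beside 4.41% of all genes, namely Slc2a3 higher and Eno3, Ldhb, Pgam2 and Pgm1 lower, and this comparison has the remaining HET arrays in the second batch and the WT arrays in the first. Slc2a3 itself was not called without WT replicate 2 or 3 or any one of the KO arrays.

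The balance of isoforms was read as the log2 ratio of 2 genes on the same array, given as its deviation from the WT mean, since levels of different probe sets are not comparable. Of 11 ratios tested with an exact two-sided permutation of the F statistic over 1680 assignments, 0 passed after Benjamini-Hochberg adjustment and 2 had an unadjusted p under 0.05. Slc2a1 to Slc2a3 deviated by -0.20, -0.07 and 0.27 on WT arrays, -0.89, -0.52 and -0.56 on HET arrays and -0.63, -0.55 and -0.44 on KO arrays (exact permutation p = 0.0214, adjusted 0.196). Every HET and KO array lay below WT, so on these arrays the Slc2a1 signal was lower relative to that of Slc2a3. Pygm to Pygb deviated by -0.03, -0.04 and 0.07 in WT, while HET gave -0.10, -0.02 and -0.20 and KO -0.39, -0.30 and -0.16 (exact permutation p = 0.0357, adjusted 0.196). The KO arrays lay below WT, and the KO minus WT change was -0.28 both without and with the batch as a block. The blocked value rests on HET replicate 1, and its parts differ. Pygm was -0.33 and Pygb -0.05 without the block, and -0.08 and 0.19 with it.

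The other 9 ratios did not have an unadjusted p under 0.05. Ldha to Ldhb, the muscle against the heart subunit, changed by 0.02 (exact permutation p adjusted 0.629), and its 9 arrays lay between -0.04 and 0.09. Hk1 to Hk2 changed by 0.01 (0.629) and Pgam1 to Pgam2 by 0.08. Slc2a1 to Slc2a4 changed by 0.30 (0.578), and by -0.08 with the block. Pfkm to Pfkl changed by 0.16 (0.578), and by 0.41 with the block. Its HET arrays deviated by 0.16, -0.22 and 0.04, and its KO arrays by 0.21, 0.13 and 0.14. Ratios with Eno1 were not tested.

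**Figure D5:**
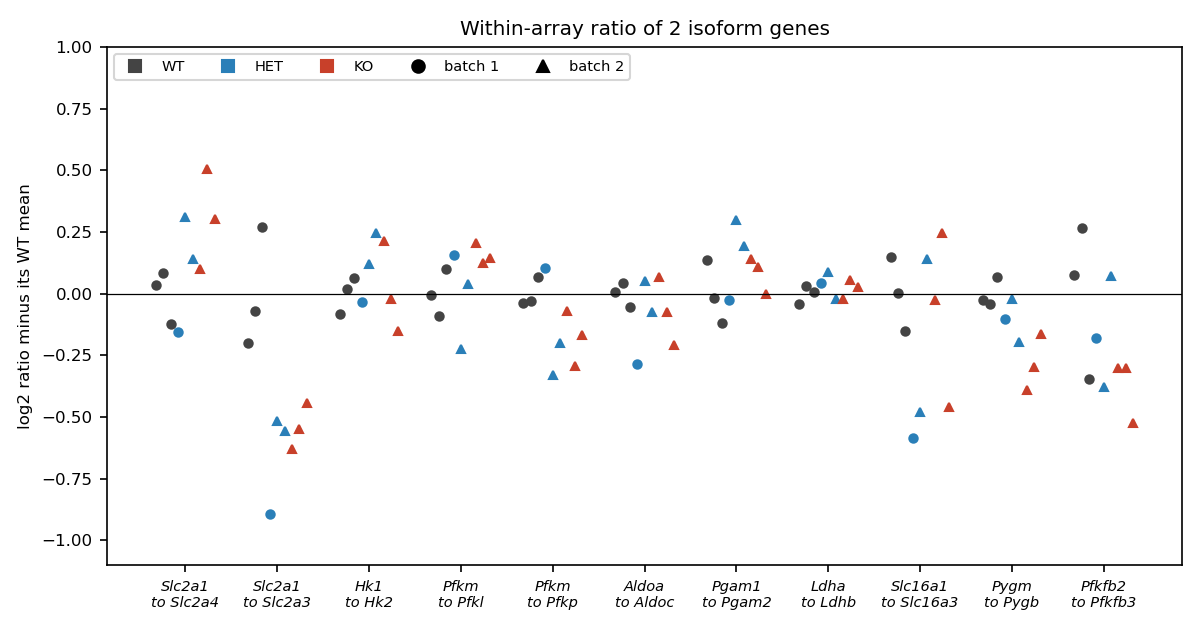
Within-array log2 ratio of 2 isoform genes minus its WT mean, 1 point per array, coloured by genotype and shaped by array batch. For Slc2a1 to Slc2a3 all HET and KO arrays lie at -0.44 or lower, while Ldha to Ldhb stays between -0.04 and 0.09.

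Of a wider list of 65 genes of glucose metabolism and its regulators, 60 are on the array and 54 were tested. Of these 28 were lower and 26 higher in KO than in WT, with a median of -0.01, while 51.6% of all genes were lower. Between KO and WT limma called 1 lower and 1 higher, beside 0.883% and 0.737% of all genes. It called 0 in HET minus WT and 0 in KO minus HET, beside 0% and 0.0154%. Phka2, a regulatory subunit of phosphorylase kinase, which activates glycogen phosphorylase, read 662, 596 and 746 on WT arrays, 581, 477 and 486 on HET arrays and 436, 458 and 461 on KO arrays (-0.54 ± 0.12, adjusted p = 0.0339 by limma; -0.28 when blocked by batch). Hif1a, the oxygen-regulated subunit of a factor that binds ACGTG, read 1184, 1197 and 1229 in WT, while HET gave 1022, 1770 and 1574 and KO 1847, 2051 and 1813 (0.65 ± 0.14, adjusted p = 0.0383). HET replicate 1 was the lowest array of all for Hif1a, and the block gave -0.05. Of the 21 members with ACGTG in their promoter windows, 5 are among the 11 members with a window whose KO arrays lay below WT, and 16 are among the other 20. These classes rest on brightest probe sets. The 11 include Pgk1 and Tpi1, each with a dimmer probe set higher in KO, and most of the 11 also had the step at the batch border. A relation of motif and direction was not tested.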

How the data were processed

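Column-purified total RNA (6 µg) was labelled for the arrays, per the labels' protocols. The authors deposited linear intensities, 1 per probe set, made with MAS5 per the submitters' processing notes, which give no version. Every deposited column has a mean of 200 after removal of the top and bottom 2%, so arrays were scaled but not otherwise normalized. Of 45101 probe sets, 34958 name 1 gene (symbols updated by gene ID through RefSeq, GRCm38.p6). Tests used log2(signal + 16) of the deposited intensities, so that changes of dim genes are understated, and 5165 genes averaging less than a signal of 21.7 (the 40th percentile over probe sets) were left out.

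The test was limma 3.58.1 (R 4.3.3; lmFit over 9 arrays and eBayes with trend), two-sided, and p-values were adjusted by Benjamini-Hochberg over 13029 genes. Members and lists were chosen with earlier results of these data known. Values on every array are given for members with KO arrays wholly apart from WT, the member with the smallest p of each step, and isoform pairs described. The batch came from spike-in controls and the block leaves 5 residual degrees of freedom. The number of arrays limits the precision. Replicate numbers did not pair arrays: correlations of the 9 same-numbered pairs were -0.04 to 0.05. Alternatives covered normalization, pseudocount, filter, probe set choice, variance model, array weights, blocks and leaving out arrays. The fit was tested on simulated data. Python 3.11.15 with matplotlib 3.10.9 drew the figures.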

Additional observations from a re-analysis of the deposited data

How the results depend on the processing

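The number of members called between KO and WT, 1 in the reported setting, was 0 with each array shifted to 1 median, with no filter, with a gene's probe sets averaged, with no intensity trend and with the array batch as a block, 7 with array quality weights, and 9 with only the arrays compared. It was 2 (Pygm and Slc2a3) with each array shifted to the median of the genes tested, beside 236 of all 13029 genes. This alternative was chosen after seeing the data. It ranged from 0 to 9 when single arrays were left out. Members called between HET and WT, 0 as reported, ranged from 0 to 5 when single arrays were left out. The adjusted p of Slc2a3 was 0.0927 with the median shift, 0.0558 with no filter, 0.258 with probe sets averaged and 0.146 with no trend. With the replicate number as a block, 1 member was called, and the pairing check gave no sign that numbers pair the arrays. Over all genes, 211 were called as reported, 24 with the median shift, 85 with no filter, 7 with probe sets averaged, 6 with no trend, 612 with array weights, 773 with only the arrays compared, 127 with the replicate block, 1 with the batch block, and 10 to 840 without single arrays. The cause was not tested. The count of members lower in KO was 17 to 24 under the alternatives run, and 0 members were called between KO and HET and 0 isoform ratios under the alternatives run. Among the members tested, Hk3, Gbe1 and Slc16a3 had the widest spread (pooled SD 0.41, 0.27 and 0.26 on the log2 scale).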
